A study of Arabidopsis thaliana with 9 samples.

Results

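The genes described here encode the Rubisco small subunits and enzymes that work around them in leaf carbon fixation. They were picked by locus, a rule that uses no measured value but was set with earlier results of these data known, and are 10 of the 32399 nuclear genes counted. The small subunit genes are RBCS1A (AT1G67090), RBCS1B (AT5G38430), RBCS2B (AT5G38420) and RBCS3B (AT5G38410). The others are RCA (AT2G39730), PRK (AT1G32060), SBPASE (AT3G55800), GAPA (AT3G26650), GAPB (AT1G42970) and FBP (AT1G43670). FBP is the cytosolic fructose-1,6-bisphosphatase of sucrose synthesis and not an enzyme of the Calvin cycle proper, so the name of the cycle covers the other 9.

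Rubisco joins CO2 to ribulose bisphosphate in the chloroplast, and the other enzymes of the Calvin cycle reduce the product and regenerate the acceptor. Its large subunit is encoded in the chloroplast genome and its small subunits in the nucleus, where a small family of light-induced genes makes some of the most abundant messages of a green leaf. RBCS1A lies on chromosome 1, and the other small subunit genes lie close together on chromosome 5. The 279 organelle genes had 0 counts in every library, so the large subunit was not measured.

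The material was leaf of Arabidopsis thaliana, 3 weeks old, from a growth room at 22 °C whose days had 16 h light and whose nights lasted 8 h. Beside wild-type Col-0 there was 1 mutant allele each of the largest subunit of RNA polymerase IV (nrpd1-3) and of RNA polymerase V (nrpe1-11), relatives of Pol II that serve RNA-directed DNA methylation in plants. Nascent RNA came from a nuclear run-on (NRO), in which polymerases already engaged in isolated nuclei add biotin-UTP to their transcripts, and steady-state nuclear RNA (RNA) was sequenced from the same genotypes. There was 1 library for each assay and genotype, 6 in all, so every ratio between libraries lacks a replicate check and its interval covers counting error only. The hour of harvest and the number of plants behind a library are not given in the labels.

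The NRO libraries held 2687149 to 8185846 gene counts and the RNA libraries 386011 to 709905. Both Col-0 libraries stood apart. The 10 most abundant genes took 45.2% of the gene counts in NRO of Col-0 against 19.7% and 17.2% in nrpd1-3 and nrpe1-11, and 66.7% in RNA of Col-0 against 50.4% and 56.6%. Alignments of reads that aligned more than once, which enter no gene count and can number several for a read, made up 79.8% of the alignments listed in NRO of Col-0, 48.4% and 47.8% in the other NRO libraries, and 90.3% to 92.7% in RNA. The part of these differences in the results below was not tested. Scaling by trimmed mean of M values (TMM) was used for levels, given as CPM (TMM-scaled counts) within an assay. Scaling by library totals instead raised the median log2 ratio of all genes against Col-0 from 0.03 to 0.53 (nrpd1-3) and from 0.04 to 0.74 (nrpe1-11) in NRO, and from -0.02 to 0.72 and from 0.04 to 0.56 in RNA. NRPD1 (AT1G63020) had 9 NRO counts in Col-0, 94 in nrpd1-3 and 19 in nrpe1-11, so the library labelled nrpd1-3 held the most, and NRPE1 (AT2G40030) had 24, 81 and 82. Counts over a whole gene do not show an allele, so nrpd1-3 below stands for the library so labelled.

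The libraries carried the messages of green leaf. All 40 light-harvesting and photosystem genes examined had counts in every library, and their summed RNA level was 13766 CPM in Col-0, 11201 CPM in nrpd1-3 and 17063 CPM in nrpe1-11. The root hair regulator RHD6 (AT1G66470) was at 0 in every library, and the endodermis gene CASP1 (AT2G36100) had 1 count in NRO of nrpd1-3 and 0 elsewhere. PYK10 (AT3G09260), the most abundant of the 5 root genes examined, did have counts, 34 in NRO of Col-0, 399 in nrpd1-3 and 272 in nrpe1-11, and 10, 32 and 61 in RNA. The additive model described below called it higher than in Col-0 in nrpd1-3 (log2 change 1.52, edgeR adjusted p = 6.97e-05) and in nrpe1-11 (1.38, edgeR adjusted p = 0.000233), and its part in the results was not tested. Of 5 genes of dividing cells, 0 or 1 was at 0 in each NRO library and 2 to 4 in each RNA library. The 10 markers of epidermis, phloem, guard cells, trichomes and xylem summed in NRO to 92.9 CPM in Col-0, 120 CPM in nrpd1-3 and 141 CPM in nrpe1-11, and to 93.9, 116 and 140 CPM in RNA, where 3, 3 and 5 of them were at 0. Their sum was thus lowest in Col-0 in both assays, and its part in the differences between genotypes was not tested. Single markers went both ways. Of 7 measured in NRO of nrpe1-11, 3 were higher and 2 lower by the size rule described below, where 12.1% of all genes were higher and 11.1% lower. The epidermis genes KCS10 (AT2G26250) and ATML1 (AT4G21750) had log2 ratios to Col-0 of 1.25 and 1.61 there. PDF1 (AT2G42840), also of the epidermis, had -1.35, and the phloem gene SUC2 (AT1G22710) 0.20. In bulk leaf a smaller number of mesophyll cells and less RNA in each of them cannot be told apart.

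**Figure D1:**
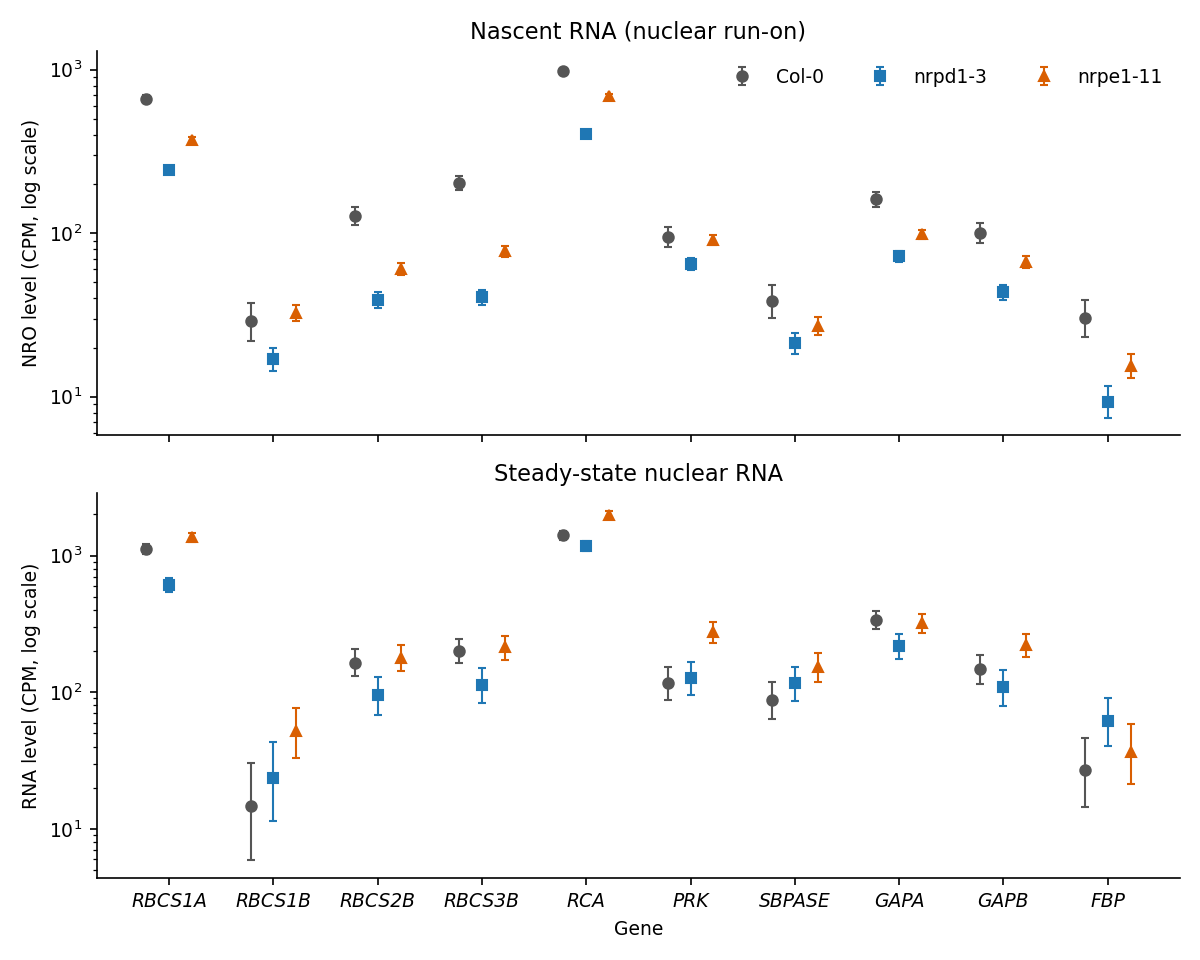
Level of the 10 genes (CPM, TMM-scaled within each assay, log axis) in NRO (top) and RNA (bottom), 1 point per library with its 95% counting interval, for Col-0 (circles), nrpd1-3 (squares) and nrpe1-11 (triangles). In NRO the nrpd1-3 point is the lowest of the 3 for all 10 genes, while in RNA the nrpe1-11 point is the highest for 8 of them, FBP and GAPA being the others.

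RBCS1A, the main small subunit gene of the Arabidopsis leaf, had an NRO level of 665 CPM in Col-0 (1332 counts), 244 CPM in nrpd1-3 (2142 counts) and 374 CPM in nrpe1-11 (3472 counts). In RNA it stood at 1123 CPM in Col-0 (538 counts), 611 CPM in nrpd1-3 (258 counts) and 1363 CPM in nrpe1-11 (633 counts). The library labelled nrpd1-3 was thus the lowest in both assays, while nrpe1-11 lay between the others in NRO and highest in RNA. Its log2 ratio to Col-0 was -1.45 in NRO of nrpd1-3 (95% interval -1.55 to -1.35) and -0.83 in NRO of nrpe1-11 (-0.92 to -0.74). In RNA the ratios were -0.87 (-1.10 to -0.66) and 0.28 (0.11 to 0.45). Under library totals both RNA ratios moved up, to -0.09 and 0.84, and the NRO ratios to -0.92 and -0.10.

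RBCS3B, at one end of the chromosome 5 group, showed the lowest NRO ratios to Col-0 of the 10 genes in both mutants. Its NRO level was 204 CPM in Col-0 (408 counts), 40.5 CPM in nrpd1-3 (355 counts) and 77.4 CPM in nrpe1-11 (719 counts). That is a log2 ratio of -2.32 (-2.54 to -2.12) in nrpd1-3 and -1.39 (-1.57 to -1.22) in nrpe1-11. Of all 16083 genes measured in NRO, 0.547% had a lower ratio in nrpd1-3 and 5.88% in nrpe1-11. In RNA the gene stood at 200.4 CPM in Col-0 (96 counts), 114 CPM in nrpd1-3 (48 counts) and 213 CPM in nrpe1-11 (99 counts), so the ratio of nrpd1-3 was nearer to 0 there (log2 ratio -0.80, interval -1.35 to -0.30) and nrpe1-11 stood beside Col-0 (0.09, -0.33 to 0.51).

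RBCS2B lies between RBCS3B and RBCS1B. Its NRO level was 128 CPM in Col-0 (256 counts), 39.1 CPM in nrpd1-3 (343 counts) and 60.5 CPM in nrpe1-11 (562 counts). The RNA levels were 165, 94.7 and 179 CPM (79, 40 and 83 counts). Its order over the libraries was the same as that of RBCS1A, with log2 ratios to Col-0 of -1.70 and -1.08 in NRO and -0.77 and 0.11 in RNA for nrpd1-3 and nrpe1-11.

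RBCS1B, the member of the group with the fewest counts, differed from the other small subunit genes in its order. In NRO it stood at 29.0, 17.0 and 32.4 CPM (58, 149 and 301 counts) in Col-0, nrpd1-3 and nrpe1-11. In RNA it had only 7, 10 and 24 counts, or 14.6, 23.7 and 51.7 CPM, and it reached the minimum of 20 counts through the nrpe1-11 library alone. Col-0 was therefore not the highest library in either assay, with NRO log2 ratios of -0.76 (-1.22 to -0.31) in nrpd1-3 and 0.16 (-0.25 to 0.59) in nrpe1-11 and an RNA ratio of 1.56 (0.56 to 3.28) in nrpe1-11. The small subunit genes share long near-identical stretches, and reads that align to more than 1 of them are not in these counts, so the split between them is uncertain.

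Summed over the 4 genes, the small subunit messages reached an NRO level of 1026 CPM in Col-0, 341 CPM in nrpd1-3 and 544 CPM in nrpe1-11. The sum in nrpd1-3 was 0.332 of that in Col-0 (0.314 to 0.351) and the sum in nrpe1-11 0.531 (0.504 to 0.559). In RNA the sums were 1503, 843 and 1806 CPM, or 0.561 (0.492 to 0.637) and 1.202 (1.09 to 1.33) of Col-0. With library totals the NRO log2 ratios of the sum became -1.07 and -0.18 and the RNA ratios -0.14 and 0.75, so no sum changed its direction.

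The share of each gene within the family does not depend on scaling between libraries. RBCS3B made up 19.9% of the small subunit counts in NRO of Col-0 (exact 95% binomial interval 18.2% to 21.7%), 11.9% in nrpd1-3 (10.7% to 13.1%) and 14.2% in nrpe1-11 (13.3% to 15.2%). The Col-0 interval lay above both others, which did not overlap each other. RNA showed no such order, with 13.3% (10.9% to 16.0%), 13.5% (10.1% to 17.5%) and 11.8% (9.69% to 14.2%). RBCS1B took 2.82% (2.15% to 3.64%), 4.98% (4.23% to 5.83%) and 5.96% (5.32% to 6.64%) in NRO, lowest in Col-0. In RNA its shares were 0.972% (0.392% to 1.99%), 2.81% (1.36% to 5.11%) and 2.86% (1.84% to 4.23%). RBCS2B stayed near one value, between 11.1% and 12.5% in NRO and between 9.89% and 11.2% in RNA, with overlapping intervals. RBCS1A made up the rest, 64.8%, 71.7% and 68.7% in NRO and 74.7%, 72.5% and 75.4% in RNA. These differences are between single libraries, and the share of repeated alignments was highest among NRO libraries in Col-0, where the RBCS3B share was highest; its part in these shares was not tested.

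**Figure D2:**
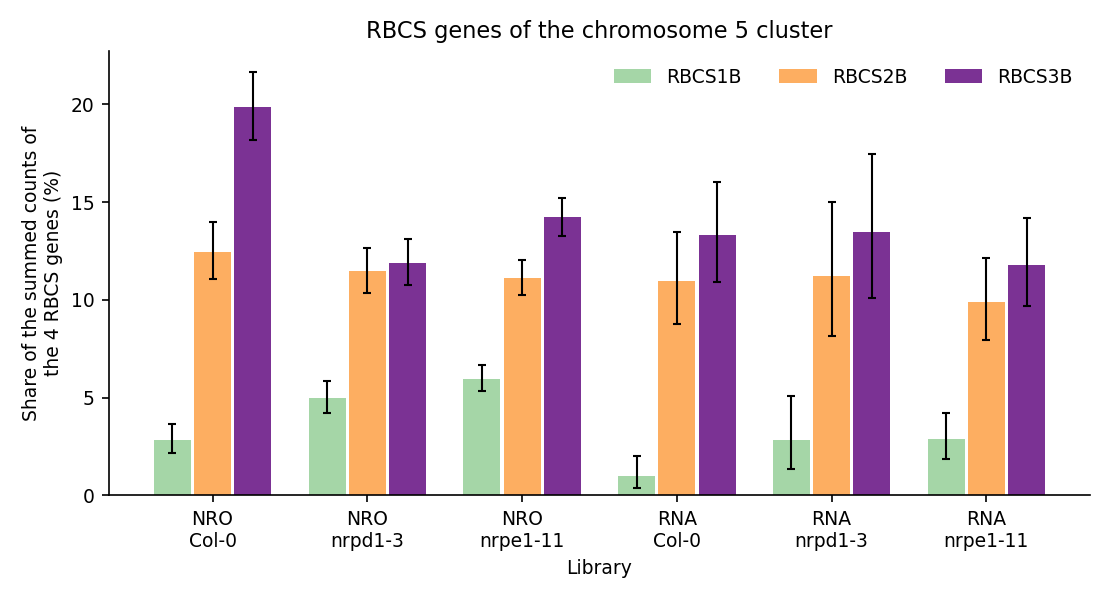
Shares of RBCS1B, RBCS2B and RBCS3B in the summed counts of the 4 small subunit genes (%, bars, with exact 95% binomial intervals) in each of the 6 libraries; RBCS1A makes up the rest. The RBCS3B bar stands at 19.9% in NRO of Col-0 and at 11.9% and 14.2% in the mutants, while in RNA its bars lie between 11.8% and 13.5%.

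RCA, Rubisco activase, uses ATP to free Rubisco sites from inhibitory sugar phosphates. Its NRO level was 977 CPM in Col-0 (1956 counts), 405 CPM in nrpd1-3 (3555 counts) and 690 CPM in nrpe1-11 (6408 counts). In RNA it stood at 1415, 1181 and 1996 CPM (678, 499 and 927 counts). The gene thus followed the RBCS1A order in both assays, with log2 ratios to Col-0 of -1.27 (-1.35 to -1.19) and -0.50 (-0.57 to -0.43) in NRO. The RNA ratios were -0.26 (-0.43 to -0.09) and 0.49 (0.35 to 0.64). Under library totals the NRO ratio of nrpe1-11 changed sign to 0.23, and the RNA ratio of nrpd1-3 to 0.53.

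GAPA and GAPB encode the subunits of the plastid glyceraldehyde-3-phosphate dehydrogenase, which carries out the reducing step. The NRO level of GAPA was 161 CPM in Col-0, 72.5 CPM in nrpd1-3 and 98.3 CPM in nrpe1-11 (322, 636 and 913 counts), followed in the same order by RNA levels of 338, 218 and 321 CPM (162, 92 and 149 counts). GAPB stood at 100.4, 43.5 and 66.7 CPM in NRO (201, 382 and 619 counts) and at 148, 109 and 222 CPM in RNA (71, 46 and 103 counts). Both subunit genes were highest in Col-0 in NRO and lowest in nrpd1-3 in both assays, but under library totals the RNA ratios of nrpd1-3 to Col-0 turned above 0, to 0.15 and 0.33 for GAPA and GAPB. Their NRO log2 ratios to Col-0 were close to each other, -1.15 and -1.20 in nrpd1-3 and -0.71 and -0.59 in nrpe1-11, where library totals turned both above 0, to 0.02 and 0.14. The ratio of GAPA to GAPB counts, which needs no scaling, was 1.60 (1.34 to 1.92), 1.66 (1.46 to 1.89) and 1.47 (1.33 to 1.64) in NRO. In RNA it was 2.28 (1.72 to 3.06), 2.0 (1.39 to 2.91) and 1.45 (1.12 to 1.88), and the intervals of all 3 NRO libraries overlapped, as did those of all 3 RNA libraries.

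PRK, phosphoribulokinase, makes the CO2 acceptor in the last step of regeneration. Its NRO levels were 94.9, 64.5 and 91.2 CPM (190, 566 and 847 counts), which on the log2 scale is the smallest spread of the 10 genes over the 3 NRO libraries. In RNA it stood at 117, 128 and 276 CPM (56, 54 and 128 counts), so that nrpe1-11 held more than either other library. The log2 ratios to Col-0 were -0.55 (-0.80 to -0.31) and -0.06 (-0.29 to 0.18) in NRO and 0.12 (-0.44 to 0.69) and 1.21 (0.77 to 1.72) in RNA; under library totals the NRO ratio of nrpe1-11 became 0.67.

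SBPASE, sedoheptulose-1,7-bisphosphatase, acts earlier in regeneration and is found only in the plastid cycle. It stood at 38.5, 21.2 and 27.3 CPM in NRO (77, 186 and 253 counts) and at 87.7, 116 and 153 CPM in RNA (42, 49 and 71 counts). Col-0 was the highest library in NRO and the lowest in RNA. The NRO log2 ratios to Col-0 were -0.85 (-1.25 to -0.46) and -0.49 (-0.87 to -0.11), the latter 0.23 under library totals, and the RNA ratios 0.39 (-0.22 to 1.03) and 0.77 (0.23 to 1.39).

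FBP had the fewest counts beside RBCS1B. In NRO it stood at 30.5, 9.35 and 15.5 CPM (61, 82 and 144 counts), highest in Col-0. In RNA it had 13, 26 and 17 counts, or 27.1, 61.5 and 36.6 CPM, and passed the count minimum through nrpd1-3 alone. The library labelled nrpd1-3 was the lowest in NRO, with a log2 ratio to Col-0 of -1.67 (-2.20 to -1.20), and the highest in RNA, with a ratio of 1.06 (0.17 to 2.26).

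The library labelled nrpd1-3 was set against that of Col-0 first. In NRO most of the 10 members were lower in it. With single libraries no test was possible, and a gene was counted as higher or lower where its log2 ratio passed 1 in either direction and its interval left out 0 (the size rule). On that scale RBCS1A, RBCS2B, RBCS3B, RCA, GAPA, GAPB and FBP were lower, 7 of 10, and 0 were higher, where 6.99% of all 16083 genes were lower and 9.31% higher. The other members, RBCS1B, PRK and SBPASE, had ratios between -0.85 and -0.55, and all 10 intervals lay below 0. Of all genes, 20.2% had a lower ratio than PRK, the member nearest to 0. The share of all genes with an interval below 0 was not counted. The median of the members was -1.23 against 0.03 for all genes. Under library totals all 10 ratios were still below 0, with a median of -0.71 against 0.53, and RBCS2B, RBCS3B and FBP, 3 of 10, met the rule.

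In RNA of nrpd1-3 the picture was mixed. By the size rule 1 of 10 members was higher, FBP, and 0 were lower, where 7.25% of the 3297 genes measured in RNA were higher and 11.9% lower. FBP was measured only because its 26 counts in nrpd1-3, the library where it is high, reached the minimum, so this count supports nothing, and the call was lost with no filter on low counts and after thinning to equal totals. Ratios of 6 members lay below 0 and of 4 above it, and library totals turned this to 3 and 7. The median was -0.35 against -0.02 for all genes. Counting intervals lay below 0 for RBCS1A, RBCS2B, RBCS3B, RCA and GAPA and above 0 for FBP.

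A test came from fitting all 6 libraries at once, with assay and genotype as additive terms. Its spread is the variation of the genotype response between assays and not between plants. It fits a single change for both assays, while each member's NRO ratio lay below its RNA ratio in both mutants, as given below. It called 5 of 10 members lower in nrpd1-3 than in Col-0 and 0 higher, where 5.34% of 14530 genes were called lower and 3.89% higher. RBCS3B fell by 1.77 ± 0.308 on the log2 scale (± SE from the fitted change and the test statistic; edgeR adjusted p = 1.11e-06), RBCS2B by 1.39 ± 0.294 (edgeR adjusted p = 0.000118) and RBCS1A by 1.25 ± 0.374 (edgeR adjusted p = 0.0146). The dehydrogenase genes GAPA and GAPB fell by 0.97 ± 0.308 and 0.95 ± 0.292 (edgeR adjusted p = 0.0238 and 0.0196). RCA, at -0.86 ± 0.402, had an edgeR adjusted p of 0.185, and FBP, whose assays differ in direction, one of 0.116. DESeq2 called the 3 small subunit genes alone. Under library totals RBCS3B alone was called, where 198 of 14530 genes were called lower and 2369 higher. No member's call held in every fit that left out 1 library. Over these fits the log2 change spanned -2.35 to -0.95 for RBCS3B, -1.78 to -0.80 for RBCS2B and -1.59 to -0.83 for RBCS1A. It spanned -1.19 to -0.71 for GAPA and -1.30 to -0.40 for GAPB.

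The nrpe1-11 libraries were set against Col-0 in the same way. In NRO 2 of 10 members were lower by the size rule, RBCS2B and RBCS3B, and 0 higher, where 11.1% of all genes were lower and 12.1% higher. Ratios of 9 members lay below 0, with RBCS1B above it, and the median was -0.65 against 0.04; under library totals 4 lay below 0, 6 above it and 0 met the rule. In RNA 2 of 10 were higher, RBCS1B and PRK, and 0 lower, where 14.0% of genes were higher and 19.0% lower. RBCS1B was measured only through its 24 counts in nrpe1-11, the library where it is high, which leaves PRK as the 1 member whose call does not rest on that library passing the minimum. All members but GAPA had RNA ratios above 0, with a median of 0.44 against 0.04. Library totals put all 10 RNA ratios above 0 and 5 past the rule, where they also put 972 of the 3297 genes higher by it.

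In the additive model 1 of 10 members was called lower in nrpe1-11 than in Col-0 and 0 higher, where 11.5% of all genes were called lower and 6.94% higher. It was RBCS3B, which fell by 0.89 ± 0.295 (edgeR adjusted p = 0.0177). Its log2 ratios to Col-0 were -1.39 in NRO and 0.09 (-0.33 to 0.51) in RNA. The fitted fall thus joins unlike ratios and was not seen in RNA. This call was lost under DESeq2, under library totals and without the Col-0 NRO library, the nrpd1-3 libraries of either assay or the nrpe1-11 NRO library. Without the Col-0 NRO library PRK was instead called higher, and without the Col-0 RNA library 6 members were called lower, as were 1963 of all 14529 genes tested, against 1677 with all 6 libraries. Each assay has a single Col-0 library that serves both mutants, so their ratios are not independent of each other.

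**Figure D3:**
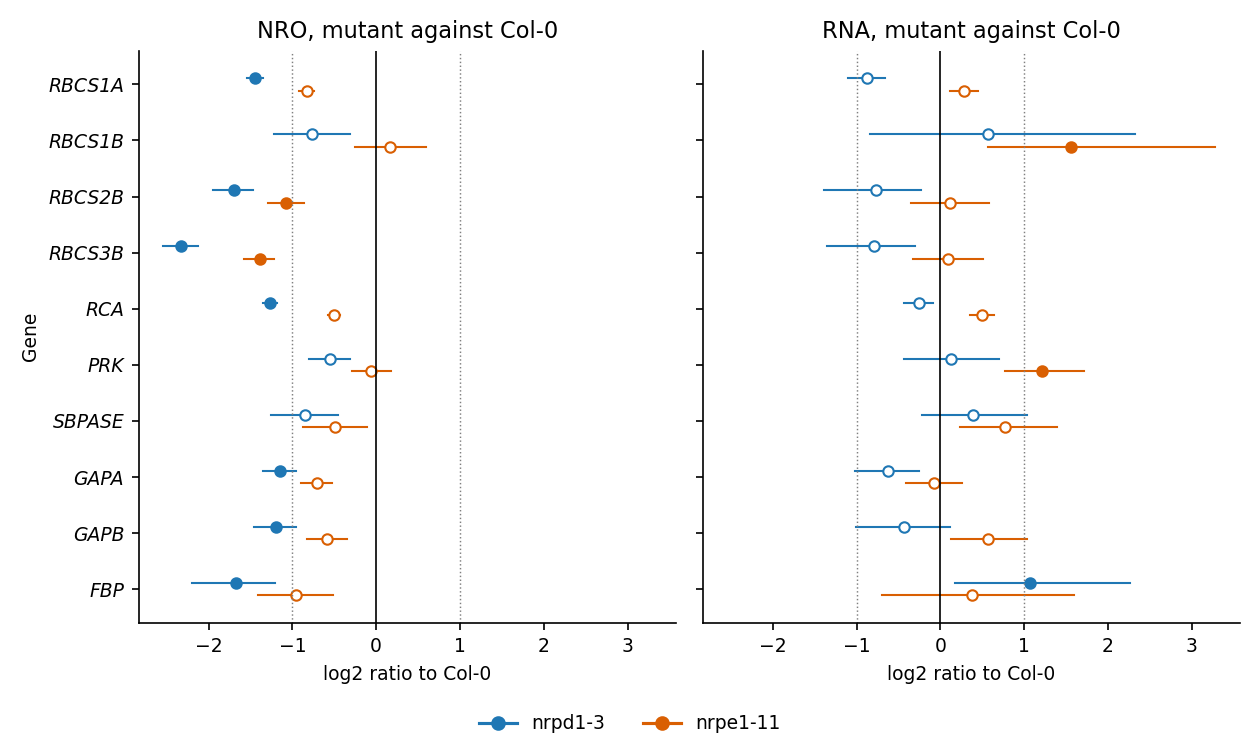
Log2 ratio to Col-0 (x axis) of each gene (y axis) in NRO (left) and RNA (right), for nrpd1-3 and nrpe1-11, with 95% counting intervals as lines; filled points met the size rule, open points did not, and dotted lines mark a 2-fold difference. The NRO points lie to the left of 0 except RBCS1B in nrpe1-11, whereas the RNA points of nrpe1-11 lie to the right of 0 except GAPA.

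Other genes of the Col-0 libraries moved beside these. The 16 early jasmonate genes, which answer to wounding, had a summed NRO level of 12431 CPM in Col-0, 6618 CPM in nrpd1-3 and 4440 CPM in nrpe1-11, and a summed RNA level of 4888, 1773 and 1768 CPM. Of the 16, the additive model called 13 lower in the library labelled nrpd1-3 and 14 in nrpe1-11. Of all genes it called 5.34% and 11.5% lower. The 5 senescence genes had their lowest sums in Col-0, where NRO held 140 CPM against 240 CPM in nrpd1-3 and 402 CPM in nrpe1-11, and RNA 104 CPM against 227 and 413 CPM. SEN1 (AT4G35770) and NAP (AT1G69490) carried the sum. In NRO of nrpd1-3 the median of the 4 senescence genes measured was -0.25, with NAC6 (AT5G39610) at -1.09 and SAG13 (AT2G29350) at -1.06, both lower by the size rule. Of these 4 genes the model called 1 higher in nrpd1-3 and 2 higher in nrpe1-11, where 3.89% and 6.94% of all genes were called higher. The part of these levels in the results for carbon fixation genes was not tested.

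A direct comparison of nrpe1-11 with nrpd1-3 leaves the Col-0 libraries out of the ratio. All 10 members were higher in nrpe1-11 in NRO, with log2 ratios from 0.36 (SBPASE) to 0.93 (RBCS3B) and all 10 intervals above 0. Of all genes, 76.4% had a lower ratio than SBPASE and 95.9% a lower one than RBCS3B. The share of all genes with an interval above 0 was not counted. The ratios were above 0 under library totals and DESeq2 size factors too. With TMM 0 of 10 met the size rule, where 3.35% of genes were higher and 4.66% lower by it, while RBCS1B (1.13) and RBCS3B (1.14) met it under library totals and RBCS1B (1.35) after thinning. The median of the members was 0.62 against 0.0037 for all genes. In RNA 2 of 10 were higher, RBCS1A at 1.15 (0.95 to 1.37) and PRK at 1.08 (0.64 to 1.60), and 0 lower, where 4.82% of genes were higher and 5.31% lower. Both calls were lost under library totals, with RBCS1A at 0.92 and PRK at 0.86, and that of PRK with no filter on low counts. RNA ratios of 9 members lay above 0 under each scaling, with FBP at -0.69 (-1.72 to 0.19), and the median was 0.88 against 0.01. RBCS1B reached the RNA minimum through nrpe1-11 alone and FBP through nrpd1-3 alone, each the library where it is high. Their RNA signs here therefore support nothing.

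In the additive model 0 of 10 members were called between the mutants, where 0.461% of all genes were called higher and 1.67% lower. All 10 fitted changes lay above 0. Of the 10, 6 had an unadjusted p under 0.05 by edgeR, as did 1735 of all 14530 genes in either direction. RBCS1B came nearest to a call at 0.95 ± 0.301 (edgeR adjusted p = 0.0665). DESeq2 called 0 as well. Leaving out either Col-0 library gave 7 calls, all higher in nrpe1-11. Over all genes the calls then numbered 299 higher and 941 lower without the NRO library and 343 and 832 without the RNA library, against 67 and 243 with all 6 libraries.

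**Figure D4:**
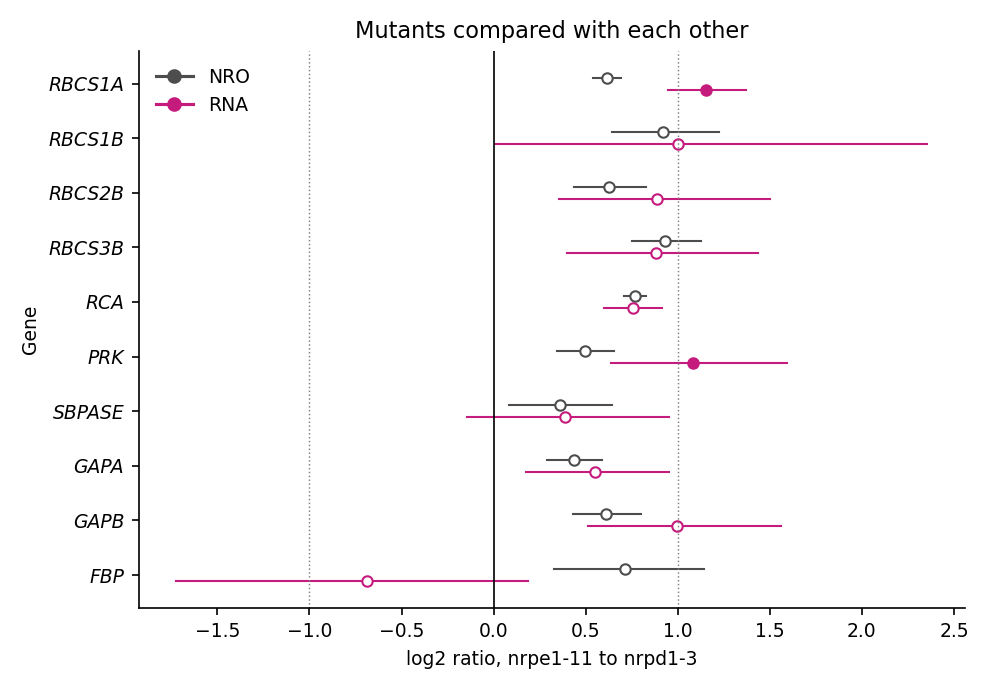
Log2 ratio of nrpe1-11 to nrpd1-3 (x axis) for each gene in NRO (grey) and RNA (pink), with 95% counting intervals; filled points met the size rule and dotted lines mark a 2-fold difference. All NRO points lie between 0.36 and 0.93, and of the RNA points FBP alone lies to the left of 0.

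Nascent and steady-state RNA were compared within each genotype, with all 6 libraries scaled together. In Col-0 2 of 10 members were lower in NRO by the size rule, SBPASE and GAPA, where 3.64% of genes were lower and 8.34% higher. In nrpd1-3 8 of 10 were lower, all but RBCS1B and PRK, where 7.43% of genes were lower, and in nrpe1-11 9 of 10, all but RBCS1B, where 8.18% were. Members higher in NRO numbered 0 in each genotype, where 13.0% of genes in nrpd1-3 and 11.7% in nrpe1-11 were higher. Only 3297 genes reached the minimum in RNA, so these shares come from genes that passed mostly through the deeper NRO libraries. After thinning to equal totals, 757 of 3707 genes were lower and 770 higher in nrpd1-3. In nrpe1-11 they numbered 705 and 859, and in Col-0 354 and 473. The median of the members was -0.56 in Col-0, -1.40 in nrpd1-3 and -1.55 in nrpe1-11, against 0.26, 0.33 and 0.21 for all genes.

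SBPASE showed the lowest NRO to RNA ratios of the members in Col-0 and nrpe1-11. On the common scale its Col-0 level was 36.5 CPM in NRO and 89.8 CPM in RNA, against 20.02 and 110 CPM in nrpd1-3 and 24.7 and 136 CPM in nrpe1-11. NRO was lower in each genotype, with log2 ratios of -1.29 (-1.86 to -0.72), -2.43 (-2.92 to -1.97) and -2.44 (-2.85 to -2.07). FBP had ratios of 0.06 (-0.82 to 1.05) in Col-0, -2.65 (-3.38 to -2.03) in nrpd1-3 and -1.19 (-1.95 to -0.40) in nrpe1-11. They rest on only 13, 26 and 17 RNA counts in single libraries, and whether the genotypes differ was not tested. RBCS1B had intervals that included 0 in all 3 genotypes.

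With genotype as a term, the additive model called 9 of 10 members lower in NRO than in RNA and 0 higher, where 9.88% of 14530 genes were called lower and 16.7% higher. SBPASE was lower by a log2 change of -2.15 ± 0.235 (edgeR adjusted p = 1.38e-17), GAPA by -1.52 ± 0.254 (edgeR adjusted p = 5.91e-08) and GAPB by -1.29 ± 0.241 (edgeR adjusted p = 1.95e-06). RBCS1A stood at -1.38 ± 0.308 (edgeR adjusted p = 8.62e-05) and RCA at -1.27 ± 0.331 (edgeR adjusted p = 0.00104). The remaining called genes, FBP, RBCS2B, PRK and RBCS3B, had changes between -1.40 and -1.03, and RBCS1B, which was not called, -0.26 ± 0.2997 (edgeR adjusted p = 0.582). The share of 9.88% comes from genes that passed mostly through the deeper NRO libraries. After thinning to equal totals 838 of 2912 genes were called lower and 863 higher, and 8 of the 9 members measured were called. Limma on the spread of single genes called 0 of all 14530 genes. The 9 calls held under DESeq2, under library totals and without either Col-0 library. They numbered 5 or 6 without any other 1 library, RBCS2B, SBPASE, GAPA and GAPB being called each time, and 0 with limma on the spread of single genes. Without such a library 605 to 875 genes were called lower and 939 to 1298 higher, of 8495 to 14530 tested.

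**Figure D5:**
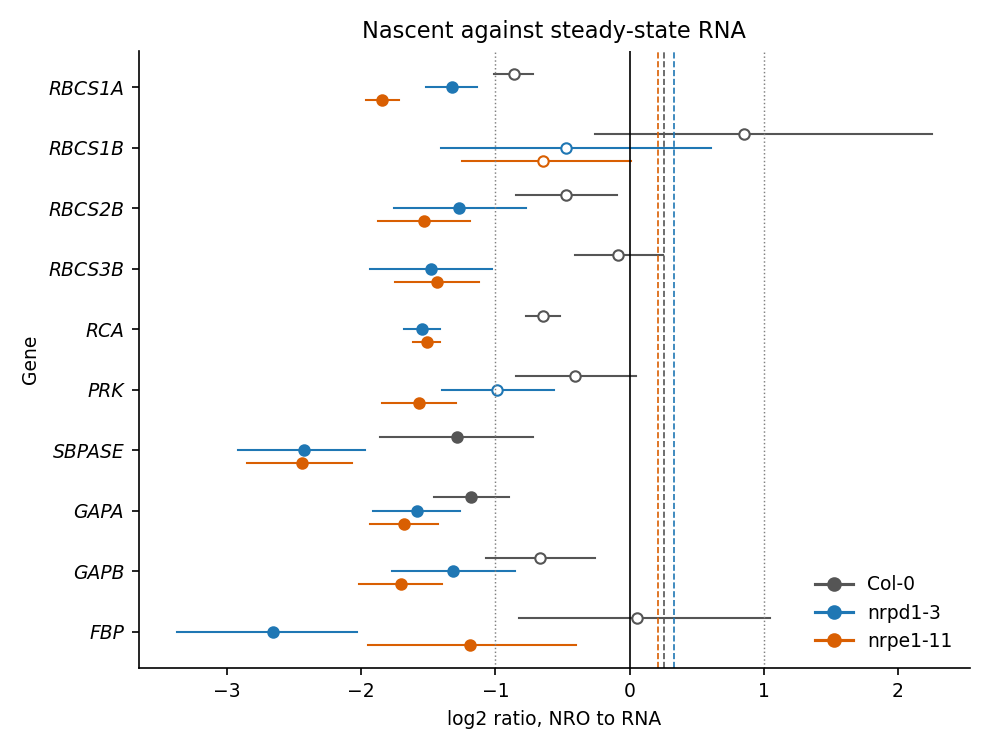
Log2 ratio of NRO to RNA (x axis) for each gene in Col-0, nrpd1-3 and nrpe1-11, with 95% counting intervals; filled points met the size rule, dotted lines mark a 2-fold difference and dashed lines the median of all genes in each genotype. All mutant points lie to the left of 0, while RBCS1B and FBP of Col-0 lie to its right.

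The NRO and RNA ratios of a mutant to Col-0 were also set against each other. The NRO log2 ratio minus the RNA log2 ratio was below 0 for all 10 members in both mutants, also under library totals. Counting intervals lay below 0 for 9 of them in nrpd1-3, all but RBCS1B, and for all 10 in nrpe1-11. These counts include FBP in nrpd1-3 and RBCS1B in nrpe1-11. Each reached the RNA minimum only through that mutant's library, where it is high, so its difference is a description and supports nothing. The medians of the members were -0.97 and -1.23, against 0.03 and -0.08 over 3297 genes. FBP had the lowest difference in nrpd1-3, -2.74 (-3.81 to -1.67), and RBCS3B in nrpe1-11, -1.48 (-1.92 to -1.04). GAPA stood nearest to 0 in nrpd1-3 at -0.52 (-0.94 to -0.10) and in nrpe1-11 at -0.63 (-1.003 to -0.26). Of the 3297 genes, 21.4% and 22.0% had a lower difference than GAPA. The intervals of these differences are normal approximations from counting error, and the share of all genes with one below 0 was not counted. Both mutants share the Col-0 libraries here too, and no test was made.

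Other genes of the cycle were examined beside the members. Of 16 further enzymes and regulators of the Calvin cycle, the additive model called 0 in either mutant, with medians of -0.35 in nrpd1-3 and -0.18 in nrpe1-11. Over all genes it called 5.34% lower and 3.89% higher in nrpd1-3, and 11.5% and 6.94% in nrpe1-11. By the size rule 2 of 16 were lower in NRO of nrpd1-3, the plastid aldolase genes FBA2 (AT4G38970) at -1.34 and FBA1 (AT2G21330) at -1.02, and 1 in nrpe1-11, FBA2 at -1.06. Of all genes 6.99% were lower in NRO of nrpd1-3 and 11.1% in NRO of nrpe1-11. FBA2 had 664, 1148 and 1475 NRO counts and 226, 165 and 307 RNA counts in Col-0, nrpd1-3 and nrpe1-11. GAPA-2 (AT1G12900), a further gene for the A subunit of the dehydrogenase, was at -0.48 and -0.20 in NRO, and in RNA of nrpe1-11 it was higher at 1.52. Against RNA, 7 of the 16 were called lower in NRO and 1 higher, with a median of -0.61, FBA1 at -1.65 ± 0.251 and FBA2 at -1.45 ± 0.276 among them. Of all genes 9.88% were called lower and 16.7% higher, or 838 and 863 of 2912 after thinning to equal totals.

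Photorespiration recovers the carbon that Rubisco loses when it fixes oxygen. Of 18 such genes tested, 13 were called lower in NRO than in RNA and 0 higher, with a median of -0.99, and 1 was called lower in nrpd1-3. Over all genes 5.34% were called lower in nrpd1-3. In NRO against RNA 9.88% of all genes were called lower and 16.7% higher, here and for the groups that follow. After thinning to equal totals these were 838 and 863 of 2912 genes. The serine:glyoxylate aminotransferase gene AGT (AT2G13360) was at -1.28 ± 0.260 and GLDP1 (AT4G33010), of the glycine decarboxylase, at -1.33 ± 0.256. Of the light-harvesting and photosystem genes 4 of 40 were called lower and 4 higher, with a median of 0.02. By the size rule 1 of 40 was lower in NRO of nrpd1-3, where 6.99% of all genes were. Of 11 sucrose synthesis and triose export genes 6 were called lower in NRO, among them the triose phosphate translocator APE2 (AT5G46110) at -0.81 ± 0.274 and the sucrose phosphate synthase ATSPS4F (AT4G10120) at -1.94 ± 0.243. Of 11 genes for Rubisco assembly, 2 were called lower and 1 higher, CPN60A (AT2G28000) of the chaperonin standing at -1.11 ± 0.30. Whether one of these groups differs from another was not tested.

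The 5 genes whose levels over the 6 libraries lay nearest to those of the summed small subunit genes, among 509 genes with at least 50 counts in every library, were FBA2, LAF3 (AT3G55850), GLU1 (AT5G04140), GOX1 (AT3G14420) and CA1 (AT3G01500). Their distances, over log2 CPM values centred on the gene's mean, were 0.54, 0.64, 0.65, 0.77 and 0.79. GLU1 is a ferredoxin-dependent glutamate synthase, GOX1 a glycolate oxidase of photorespiration and CA1 a carbonic anhydrase. Of the genes that form the sum, RBCS1A lay at 0.18, RBCS2B at 0.24 and RBCS3B at 0.62, and of those that do not enter it GAPB lay at 0.41, RCA at 0.51 and GAPA at 0.59. FBP, SBPASE and RBCS1B lay farthest among the members, at 1.59, 1.45 and 2.04.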

How the data were processed

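The authors deposited raw counts for each TAIR10 gene. Trimmomatic 0.33, TopHat2 2.1.0 and HTSeq are named, per the submitters' processing notes. How HTSeq treated strand and overlaps is not given in the sources used here. Antisense and overlapping genes may therefore not have been told apart. Both assays used a kit that keeps strand, per the labels' protocols, and these give the streptavidin capture under the RNA samples as well. Each file lists 32678 genes and 5 summary lines. Of uniquely aligned reads, 18.6% to 31.0% lay in no gene. The 3 chromatin samples were not analysed here. The members and gene lists were chosen with earlier results of these data known.

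Gene names came from a RefSeq table of assembly TAIR10.1, which matched 31912 nuclear identifiers. Genes reaching 20 counts in any library of an assay were scaled there by TMM in edgeR 4.0.16 (R 4.3.3), and log2 ratios used a prior count of 2. Intervals of ratios are exact conditional binomial intervals at 95% and those of levels exact Poisson intervals. Those of the NRO ratio minus the RNA ratio are 95% normal approximations by the delta method. Counts behind them go as low as 7 (RBCS1B in RNA of Col-0). They cover counting error only: without molecular identifiers, copies made by PCR count as separate reads. The additive model took genes that reached 20 counts in 2 of the 6 libraries into the edgeR quasi-likelihood test, Benjamini-Hochberg adjusted over all 14530 genes, with calls under 0.05. It had 2 residual degrees of freedom and a common biological coefficient of variation of 0.183. Its method was also run on simulated counts with known changes. That outcome is not given here and lends the calls no support. Alternatives were DESeq2 1.42.0, DESeq2 size factors, library totals, no filter on low counts, limma 3.58.1 with each gene's own spread, models without the second term, counts thinned to equal totals and leaving out each library.

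Genes named are the 10 members, up to 4 genes of each other list by mean CPM, and the 5 genes nearest to the summed small subunit genes. RHD6, CASP1, NRPD1 and NRPE1 are named as markers and targets.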

Additional observations from a re-analysis of the deposited data

Results flagged for a closer look

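FBP (AT1G43670), the cytosolic fructose-1,6-bisphosphatase gene, had ratios of opposite direction in NRO and RNA of the library labelled nrpd1-3. Its log2 ratio to Col-0 was -1.67 in NRO, from 61 and 82 counts, and 1.06 in RNA, from 13 and 26 counts. FBP reached the RNA count minimum through nrpd1-3 alone, the library where it is high, so the RNA value is a description and supports no opposite response. Each assay has 1 library per genotype, so the difference between the assays was not tested. The NRO ratio lay between -1.72 and -1.15 under the alternatives. The RNA ratio was 0.97 with no filter on low counts and 0.42 after thinning to equal totals, below the size rule in both cases, and 1.77 under library totals.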

How the results depend on the processing

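No paired analysis was possible because each assay and genotype has 1 library and the labels give no replicate numbers. Library totals in place of TMM moved the members past the size rule to 3 lower (NRO nrpd1-3), 0 (NRO nrpe1-11), 2 higher (NRO between mutants), 2 higher (RNA nrpd1-3), 5 higher (RNA nrpe1-11), 0 (RNA between mutants) and 1 lower (NRO against RNA in Col-0). Of all 16083 genes in NRO they put 365 lower and 3859 higher in nrpd1-3, and 515 and 5676 in nrpe1-11. Between the mutants these were 471 and 965. Of 3297 genes in RNA 99 were lower and 1104 higher in nrpd1-3, and 330 and 972 in nrpe1-11. Between the mutants these were 317 and 91. For NRO against RNA in Col-0 284 of 16083 were lower and 2051 higher. Thinning to equal totals gave 1 in NRO between mutants, 0 in RNA of nrpd1-3 and 1 in RNA of nrpe1-11, and no filter on low counts gave 0 in RNA of nrpd1-3 and 1 in RNA between mutants. In the additive model the calls for nrpd1-3 against Col-0 numbered 3 by DESeq2, 1 under library totals, 3 after thinning, 0 without the assay term and 0 with limma and each gene's own spread. Those for nrpe1-11 numbered 0, 2 (RBCS1B and PRK, both higher), 0, 0 and 0 in the same order. Over all genes of nrpd1-3, DESeq2 called 224 of 14530 lower, library totals 198, and thinning 230 of 2912. Genes called higher numbered 119, 2369 and 159. In nrpe1-11 library totals called 4377 of 14530 genes higher and 489 lower. NRO against RNA gave 2 calls without the genotype term and 0 with each gene's own spread. Of all 14530 genes, 0 were called in either mutant without the assay term. With each gene's own spread 1 gene was called in each mutant, and 0 for NRO against RNA. The member counts of 0 in these settings thus say nothing about the members. Without the genotype term 336 genes were called lower in NRO and 720 higher.

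Some fitted log2 changes turned their sign. For nrpd1-3 library totals gave RBCS1B 0.14, PRK 0.33 and SBPASE 0.29, the model without the assay term SBPASE 0.0064 and FBP 0.049, and thinning SBPASE 0.11. For nrpe1-11 library totals gave RBCS1A 0.31, RBCS2B 0.062, RCA 0.57, SBPASE 0.69, GAPA 0.20, GAPB 0.55 and FBP 0.14. The model without the assay term gave RCA 0.022, SBPASE 0.34 and GAPB 0.058, and thinning RCA 0.11, SBPASE 0.62 and GAPB 0.0086. Between the mutants FBP was -0.14 by DESeq2 and -0.45 without the assay term, and for NRO against RNA RBCS1B was 0.024 under library totals.

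Leaving out 1 library at a time gave 0 to 9 calls for nrpd1-3, 0 to 6 for nrpe1-11, 0 to 7 between the mutants and 5 to 9 for NRO against RNA. The arm with 1 library left is then assumed to vary like the others. Calls over all genes changed with the library left out as well, so these counts say nothing particular about the members. Log2 changes for nrpd1-3 spanned -1.51 to 0.73 for FBP, -0.68 to 0.25 for PRK, -0.82 to 0.68 for RBCS1B and -0.89 to 0.30 for SBPASE. For nrpe1-11 they spanned -1.20 to 0.81 for FBP, -0.58 to 0.34 for GAPB, -0.00996 to 1.01 for PRK, -0.77 to 0.094 for RBCS1A, -0.57 to 0.31 for RCA and -0.55 to 0.61 for SBPASE. FBP between the mutants spanned -1.20 to 0.85, and RBCS1B for NRO against RNA -0.68 to 0.082.

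The RBCS1A share was 76.6%, 85.8% and 82.8% in NRO and 84.9%, 84.3% and 86.5% in RNA of Col-0, nrpd1-3 and nrpe1-11 when set against RBCS3B only. Without RBCS2B it was 74.1%, 81.0% and 77.3% in NRO and 83.9%, 81.6% and 83.7% in RNA. Both follow from the smaller denominators. The GAPA to GAPB ratio after thinning was 2.08 in NRO of nrpd1-3, from only 25 and 12 counts. It was 1.32 in NRO of nrpe1-11, from 37 and 28 counts. Apart from the alternatives with a stated construction, the cause of these changes was not tested. RNA depth limits RBCS1B and FBP most, with 7 to 26 counts a library.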
